A study of Mus musculus with 9 samples.

Results

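The nuclear genes of oxidative phosphorylation were followed in mouse kidney after ligation of the common bile duct, with and without earlier feeding of norursodeoxycholic acid. They were chosen by gene symbol: every gene whose symbol begins with Nduf, Uqcr, Atp5 or Cox followed by a number from 4 to 8, together with Sdha to Sdhd, Cycs and Cyc1. The rule names genes by symbol alone, though it was set with earlier results of these data known, and the brightest row stood for a gene with more than 1 row on the array. This gave 91 of the 22180 genes measured by rows that carry a single gene symbol, and 2 of the 91 (Uqcrh-ps1 and Atp5c1-ps) are pseudogenes. Cox6c, Ndufb2, Ndufb4, Ndufs6 and Uqcr10 lie only on rows that carry several symbols and were not analysed here.

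The data were log2 signals of 9 whole-transcript arrays of kidney RNA, 3 arrays in each of 3 groups. In the norUDCA-fed CBDL group, mice were fed norursodeoxycholic acid (norUDCA), a side-chain-shortened relative of ursodeoxycholic acid, for 5 days and then had their bile duct tied for 3 weeks. In the CBDL group the duct was tied for 3 weeks without that feeding, which stops the flow of bile out of the liver. In the sham group a control operation was done 3 weeks earlier. The labels give no strain, sex or age, and do not say whether feeding continued after the operation. Arrays are called here by group and label number: norUDCA_CBDL_172, norUDCA_CBDL_175, norUDCA_CBDL_179, CBDL_164, CBDL_165, CBDL_170, sham_158, sham_159 and sham_160. How the 3 samples of a group were obtained is not in the labels, so the p-values tell only of the spread among these samples. With 3 arrays in each group the smallest two-sided p that an exact permutation test allows is 0.1, so a gene is said to rise or fall only where limma, fitted over all 22180 genes, gave a Benjamini-Hochberg adjusted p under 0.05. Adjusted p values below are from that fit, or from its repeat where an array is left out or another setting is named. Changes are given as one group mean of log2 signal minus another, and the median standard error (SE) of a difference over all genes was 0.14.

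Oxidative phosphorylation takes place in the inner membrane of mitochondria. Complex I takes electrons from NADH and complex II takes them from succinate. Ubiquinone carries them to complex III, and cytochrome c carries them on to complex IV, where oxygen is reduced to water. Complexes I, III and IV pump protons, and complex V, the ATP synthase, lets the protons flow back and makes ATP. Most subunits are encoded in the nucleus and a small set in mitochondrial DNA, so each complex except complex II is built from both genomes. In kidney the proximal tubule and the thick ascending limb are rich in mitochondria, since they reabsorb most of the filtered solutes.

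Some arrays stood apart from the others of their group. On the second principal component of all genes, which held 13.0% of the variance, sham_159 lay at -34.5 and CBDL_165 at -22.9, whereas the other 7 arrays lay between 3.4 and 12.0. Within the sham group, sham_159 was the highest array for 59 of the 91 genes. Within the CBDL group, CBDL_165 was the lowest for 49, and within the norUDCA-fed CBDL group norUDCA_CBDL_175 was the highest for 65. Counts are therefore given with and without these arrays.

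Bile duct ligation was accompanied by lower signals of most nuclear OXPHOS genes. In CBDL against sham 61 of the 91 genes fell (67.0%), none rose and 30 did not pass the test, while among all genes tested 11.5% fell and 10.3% rose (15.9% fell among genes above the dimmest tercile of mean signal). Centring each array on its median moved that split over all genes to 20.5% lower and 8.77% higher and the all-gene median from -0.06 to -0.16, and 67 of the 91 genes then fell. The median change of the 91 genes was -0.50 (the median signal fell by 29.3%), beside a median of -0.06 over all genes. The mean log2 signal over the 91 genes was 8.51, 8.44 and 8.62 on the CBDL arrays, against 8.98, 9.08 and 8.96 on the sham arrays. The 2 groups did not overlap in that mean. For 71 of the 91 genes every CBDL array lay below every sham array, which was so for 20.0% of all genes. In whole kidney RNA, fewer cells of a type and less RNA per cell cannot be told apart. The count of 61 was 47 without CBDL_165, 46 without sham_159, 38 without both and 45 without CBDL_164, in each case with none higher. For 40 of the 61 genes the call held whichever of the 9 arrays was left out.

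The norUDCA-fed CBDL arrays lay above the CBDL arrays for most of these genes. Their means over the 91 genes were 8.76, 8.97 and 8.85, against 8.51, 8.44 and 8.62 on the CBDL arrays. These means did not overlap either. In this comparison 17 genes rose (18.7%) and none fell, while among all genes 3.61% rose and 3.20% fell (5.52% and 2.91% after median centring, when 34 of the 91 rose), and 5.29% rose among genes above the dimmest tercile. The median change was 0.34, a signal higher by 26.2%, beside -0.00 over all genes. All 3 norUDCA-fed CBDL arrays were above all 3 CBDL arrays for 62 of the 91 genes, against 11.6% of all genes. The count of 17 rests on single arrays: it was 0 without norUDCA_CBDL_175, 2 without norUDCA_CBDL_179, 4 without norUDCA_CBDL_172, 2 without CBDL_164, 4 without CBDL_165, 10 without sham_158, 11 without sham_160, and 19 and 23 without sham_159 and CBDL_170. The median change over the 91 genes without norUDCA_CBDL_175 was 0.28.

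Between norUDCA-fed CBDL and sham 1 gene was called, Cox6b2, which was higher in norUDCA-fed CBDL. None fell, and 23 (25.3%) had an unadjusted p under 0.05, as had 16.3% of all genes. At the adjusted threshold, among all genes 1.82% rose and 1.37% fell (1.88% and 2.28% after median centring, when 1 of the 91 rose and 4 fell). Means over the 91 genes were 8.76, 8.97 and 8.85 on the norUDCA-fed CBDL arrays and 8.98, 9.08 and 8.96 on the sham arrays, with norUDCA_CBDL_175 inside the sham range. The median change was -0.15, beside -0.05 over all genes, and 27 genes had every norUDCA-fed CBDL array below every sham array (13.5% of all genes did). The comparison uses the same norUDCA-fed CBDL arrays and the same sham arrays as the comparisons above. Under estimated array weights it called 9 genes lower and 1 higher.

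**Figure D1:**
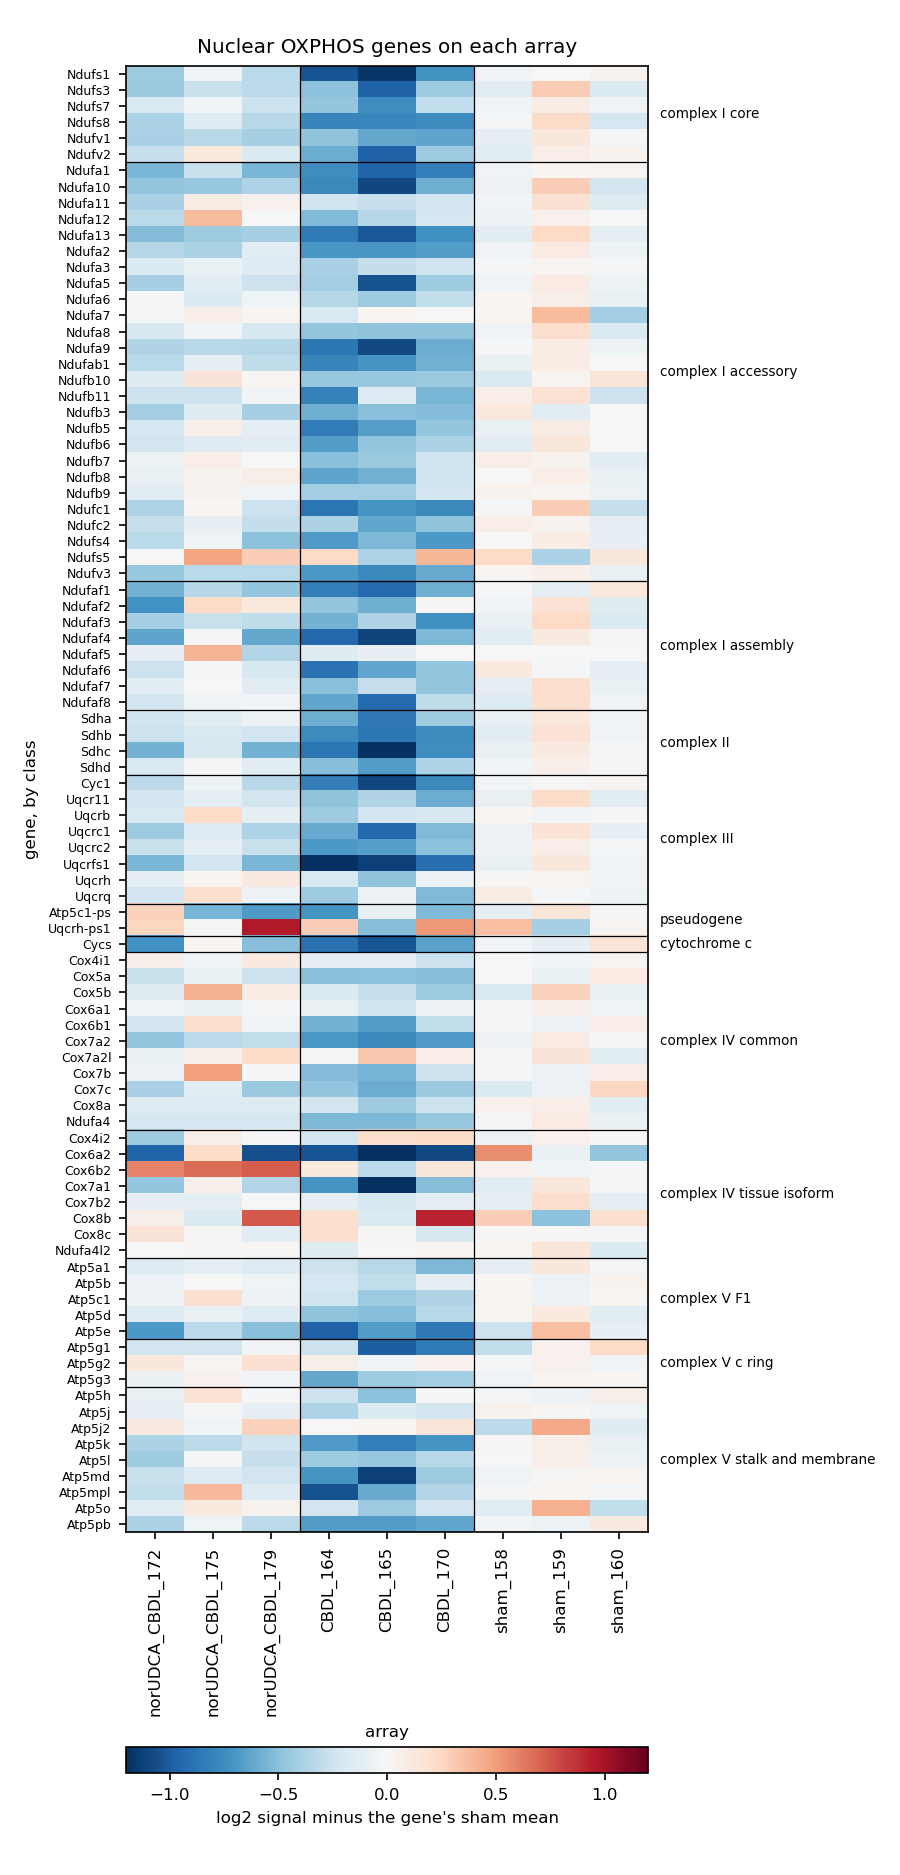
Log2 signal of each of the 91 genes (rows, by class) on each of the 9 arrays (columns), minus the gene's mean over the 3 sham arrays, with blue for lower and red for higher and colours capped at 1.2 log2 units. The CBDL columns are blue for most rows (61 of 91 genes fell against sham), CBDL_165 is the lowest CBDL array for 49 genes, and norUDCA_CBDL_175 is the highest norUDCA-fed CBDL array for 65.

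Many promoters of respiratory chain genes are known to be bound by NRF1, by ETS factors such as GABPA, by ERR-alpha (Esrra), by YY1 and by SP1, so their letters were sought on both strands of RefSeq promoter windows of build GRCm38.p6, each with 250 bases before and 50 after a start. Of the 91 genes 73 had a window, 78 windows in all. The letters GCGCATGCG (NRF1) were found in 14.1% of the 78 windows, 1.75% of all 32851 windows and 2.35% of the 21262 windows of protein-coding genes. With a free base, GCGCANGCG, which includes the letters above, the shares were 28.2%, 6.25% and 8.58%. CCGGAAG (ETS) was in 24.4%, 8.86% and 11.6%, AAGATGG (YY1) in 14.1%, 6.34% and 6.24%, AAGGTCA (ERR-alpha) in 7.69%, 4.72% and 4.08%, and GGGCGGG (SP1) in 35.9%, 25.6% and 33.9%. The NRF1 letters are almost their own reverse complement, so 1 place can match on both strands, and a match is a description of letters, not a bound site. Genes with and without a match were counted by their call in CBDL against sham. Of the 11 genes with GCGCATGCG 7 fell, as did 44 of the 62 without it, and with CCGGAAG 14 of 19 fell, beside 37 of 54 without it. For AAGATGG the counts were 9 of 11 and 42 of 62, for AAGGTCA 5 of 6 and 46 of 67, and for GGGCGGG 20 of 27 and 31 of 46.

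The 150 bases before the start are printed for 6 genes to show what these matches look like, 5′ to 3′ on the gene's strand (the minus strand for all 6), with matched letters in capitals. Atp5k (chr5:108434400-108434549) and Cycs (chr6:50566570-50566719) hold the full NRF1 letters on one or both strands, Sdha (chr13:74350241-74350390) holds the form with a free base at 3 places, Sdhd (chr9:50603850-50603999) holds it once with the ETS letters, Ndufs3 (chr2:90904722-90904871) holds ETS and SP1 letters, and Cox6b2 (chr7:4753095-4753244) holds none of them in this stretch. Cox6b2 has SP1 letters further upstream in its window, at -193 to -187, and is among the genes counted with them.
Atp5k: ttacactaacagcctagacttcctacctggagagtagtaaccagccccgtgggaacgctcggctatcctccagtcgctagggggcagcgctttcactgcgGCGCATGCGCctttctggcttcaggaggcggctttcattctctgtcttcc
Cycs: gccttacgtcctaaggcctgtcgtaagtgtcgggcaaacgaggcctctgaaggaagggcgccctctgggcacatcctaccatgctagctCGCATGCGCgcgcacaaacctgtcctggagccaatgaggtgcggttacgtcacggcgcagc
Sdha: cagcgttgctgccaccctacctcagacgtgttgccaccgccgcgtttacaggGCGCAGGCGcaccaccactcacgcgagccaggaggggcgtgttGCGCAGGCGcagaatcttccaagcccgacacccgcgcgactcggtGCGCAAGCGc
Sdhd: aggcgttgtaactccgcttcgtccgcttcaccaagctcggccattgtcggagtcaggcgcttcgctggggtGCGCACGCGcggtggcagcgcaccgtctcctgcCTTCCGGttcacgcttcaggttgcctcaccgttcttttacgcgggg
Ndufs3: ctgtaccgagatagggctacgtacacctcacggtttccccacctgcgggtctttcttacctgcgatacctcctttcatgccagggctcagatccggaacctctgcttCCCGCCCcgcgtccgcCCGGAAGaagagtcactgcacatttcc
Cox6b2: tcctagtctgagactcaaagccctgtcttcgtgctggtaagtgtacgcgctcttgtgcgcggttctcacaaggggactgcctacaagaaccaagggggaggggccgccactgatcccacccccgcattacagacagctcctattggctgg

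Complex I is the largest of the complexes and gave the most genes, 40, of which 33 fell in CBDL against sham (24 without sham_159, 21 without both sham_159 and CBDL_165). All 6 core subunits fell, with a median change of -0.65. Core subunits carry the flavin and the iron-sulfur clusters along which electrons travel. Ndufs1, the largest of the iron-sulfur subunits, had log2 signals of 10.10, 10.49 and 10.21 on the norUDCA-fed CBDL arrays, 9.50, 9.37 and 9.82 on the CBDL arrays and 10.49, 10.54 and 10.58 on the sham arrays. Every CBDL array was well below every other array, and the change against sham was -0.97 (SE 0.14, adjusted p = 0.000841), so that its signal fell by 49.0%. Ndufs8, which holds iron-sulfur clusters close to the ubiquinone site, had 9.96, 10.18 and 10.00 on the norUDCA-fed CBDL arrays, 9.54, 9.55 and 9.58 on the CBDL arrays and 10.31, 10.57 and 10.13 on the sham arrays. The CBDL arrays were again separate from both other groups, at -0.78 (SE 0.12, adjusted p = 0.00144) against sham. Ndufv1, which binds NADH and the flavin, had 9.72, 9.77 and 9.71 on the norUDCA-fed CBDL arrays, 9.62, 9.49 and 9.47 on the CBDL arrays and 9.99, 10.24 and 10.09 on the sham arrays. Here the norUDCA-fed CBDL arrays were only just above the CBDL arrays and stayed below sham, and the change of CBDL against sham was -0.58 (SE 0.10, adjusted p = 0.00217). Ndufv2, Ndufs3 and Ndufs7, the other core subunits measured, changed by -0.67, -0.63 and -0.51. The calls of Ndufs3 and Ndufs7 ended without sham_159 and without CBDL_165, with adjusted p up to 0.0752 and 0.0547, and those of Ndufs3, Ndufs7 and Ndufv2 ended without both arrays.

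Accessory subunits surround the core and are needed for its assembly and stability. Of 26 measured, 21 fell in CBDL, with a median of -0.50 (15 without CBDL_164, 14 without both sham_159 and CBDL_165). Ndufa1, a small membrane subunit, had 8.95, 9.23 and 8.95 on the norUDCA-fed CBDL arrays, 8.75, 8.54 and 8.68 on the CBDL arrays and 9.45, 9.52 and 9.53 on the sham arrays. The 3 groups did not overlap, with CBDL lowest and sham highest, and CBDL differed from sham by -0.84 (SE 0.11, adjusted p = 0.000528). Ndufv3, at the NADH end, had 8.92, 9.05 and 9.05 on the norUDCA-fed CBDL arrays, 8.69, 8.60 and 8.77 on the CBDL arrays and 9.40, 9.44 and 9.29 on the sham arrays. Ndufa13, also known as GRIM-19, had 9.36, 9.45 and 9.48 on the norUDCA-fed CBDL arrays, 9.03, 8.86 and 9.14 on the CBDL arrays and 9.75, 10.12 and 9.77 on the sham arrays. Both followed the order of Ndufa1 with no overlap, at -0.69 (SE 0.10) and -0.87 (SE 0.12) in CBDL against sham, with adjusted p of 0.000725 and 0.000877. Ndufa9, Ndufa10, Ndufc1 and Ndufa2 changed by -0.85, -0.81, -0.79 and -0.69. The 5 accessory genes that did not pass the test were Ndufb11 (-0.50, adjusted p = 0.0691), Ndufa12 (-0.36), Ndufa11 (-0.25), Ndufa7 (-0.05) and Ndufs5 (0.09). For Ndufa11, the dimmer of 2 rows changed more, by -0.58.

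Assembly factors of complex I are not part of the finished enzyme, and 8 of them carry symbols that begin with Ndufaf. In CBDL 6 of the 8 fell, with a median of -0.58, and 3 did so without CBDL_164. Ndufaf1, which helps to join the membrane arm, had 7.74, 7.96 and 7.84 on the norUDCA-fed CBDL arrays, 7.47, 7.37 and 7.72 on the CBDL arrays and 8.29, 8.19 and 8.43 on the sham arrays. The 3 groups did not overlap, with CBDL_170 just below norUDCA_CBDL_172, and the change against sham was -0.78 (SE 0.12, adjusted p = 0.00124). Ndufaf6 had 7.46, 7.69 and 7.52 on the norUDCA-fed CBDL arrays, 6.83, 7.09 and 7.25 on the CBDL arrays and 7.83, 7.70 and 7.61 on the sham arrays. Ndufaf4 had 8.28, 8.90 and 8.30 on the norUDCA-fed CBDL arrays, 7.97, 7.80 and 8.37 on the CBDL arrays and 8.79, 9.02 and 8.93 on the sham arrays. Ndufaf6 changed by -0.66 (SE 0.13) and Ndufaf4 by -0.87 (SE 0.19) in CBDL against sham, and CBDL arrays did not overlap sham arrays for either. For Ndufaf4, CBDL_170 lay within the range of the norUDCA-fed CBDL arrays. Ndufaf2 (-0.34) and Ndufaf5 (-0.09) did not pass the test.

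Complex II, succinate dehydrogenase, is also an enzyme of the citric acid cycle and has no subunit from mitochondrial DNA. Its 4 genes all fell in CBDL, with a median of -0.71 (the median signal fell by 38.8%), and all 4 calls held whichever single array was left out and without both sham_159 and CBDL_165. Sdha, the flavoprotein that oxidises succinate, changed by -0.63 (SE 0.13, adjusted p = 0.00584). Sdhb, the iron-sulfur subunit, had 9.46, 9.53 and 9.48 on the norUDCA-fed CBDL arrays, 8.95, 8.85 and 8.95 on the CBDL arrays and 9.58, 9.89 and 9.67 on the sham arrays. The 3 CBDL arrays lay close together and below all other arrays, at -0.79 (SE 0.10, adjusted p = 0.00051) against sham. Sdhc, a membrane anchor, had 10.17, 10.54 and 10.17 on the norUDCA-fed CBDL arrays, 9.86, 9.46 and 9.99 on the CBDL arrays and 10.64, 10.84 and 10.72 on the sham arrays. Sdhd, the other anchor, whose promoter is printed above, had 10.81, 10.97 and 10.87 on the norUDCA-fed CBDL arrays, 10.48, 10.32 and 10.62 on the CBDL arrays and 10.96, 11.05 and 10.97 on the sham arrays. The CBDL arrays were the lowest 3 for both, with changes of -0.96 (SE 0.16) for Sdhc and -0.52 (SE 0.10) for Sdhd against sham.

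In complex III, 5 of 8 genes fell in CBDL, with a median of -0.55, and 4 did so without CBDL_164. They were those of the subunits that carry electrons or form the large core, with Uqcr11. Uqcrfs1, the Rieske iron-sulfur protein, had 7.89, 8.21 and 7.89 on the norUDCA-fed CBDL arrays, 7.22, 7.32 and 7.53 on the CBDL arrays and 8.35, 8.57 and 8.39 on the sham arrays. The groups did not overlap, and the change of -1.08 (SE 0.13, adjusted p = 0.000333) in CBDL against sham, by which its signal fell by 52.6%, had the lowest p of the 91 genes. Cyc1, cytochrome c1, had 9.45, 9.71 and 9.43 on the norUDCA-fed CBDL arrays, 8.95, 8.67 and 8.99 on the CBDL arrays and 9.73, 9.77 and 9.80 on the sham arrays. Uqcrc2, a core protein, had 11.38, 11.54 and 11.38 on the norUDCA-fed CBDL arrays, 10.95, 10.98 and 11.15 on the CBDL arrays and 11.58, 11.72 and 11.63 on the sham arrays. CBDL arrays were the lowest 3 in both, at -0.90 (SE 0.12, adjusted p = 0.000569) for Cyc1 and -0.61 (SE 0.10) for Uqcrc2. The other core protein gene, Uqcrc1, changed by -0.69 (SE 0.14). The small subunit genes Uqcrq, Uqcrb and Uqcrh changed by -0.34, -0.28 and -0.24 and did not pass the test, although no CBDL array reached a sham array in any of them.

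Cycs encodes cytochrome c, the soluble carrier between complexes III and IV. Its brightest row had 11.26, 12.01 and 11.48 on the norUDCA-fed CBDL arrays, 11.09, 10.95 and 11.34 on the CBDL arrays and 11.95, 11.87 and 12.14 on the sham arrays. CBDL lay below sham on every array, at -0.86 (SE 0.19, adjusted p = 0.00852), while CBDL_170 overlapped norUDCA_CBDL_172. All 5 rows of Cycs were lower in CBDL, with changes of -0.79 to -1.24, and 2 of them held the same group means. Without both sham_159 and CBDL_165 the call ended.

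Complex IV had the smallest share of called genes among the 5 complexes, though the difference between complexes was not tested: 7 of 19 genes fell in CBDL, with a median of -0.29, and 4 did so without CBDL_164. Of the 11 genes that most tissues use, 5 fell, with a median of -0.45. Cox7a2, the widely expressed form of subunit VIIa, had 9.63, 9.79 and 9.81 on the norUDCA-fed CBDL arrays, 9.41, 9.33 and 9.42 on the CBDL arrays and 10.03, 10.20 and 10.08 on the sham arrays. The 3 groups were separate and CBDL differed from sham by -0.72 (SE 0.10, adjusted p = 0.000615). Ndufa4, once taken for a complex I subunit and now placed in complex IV, had 11.78, 11.79 and 11.78 on the norUDCA-fed CBDL arrays, 11.45, 11.45 and 11.54 on the CBDL arrays and 11.98, 12.09 and 11.91 on the sham arrays. Cox5a had 9.69, 9.87 and 9.70 on the norUDCA-fed CBDL arrays, 9.45, 9.46 and 9.44 on the CBDL arrays and 9.95, 9.86 and 10.05 on the sham arrays. CBDL arrays were the lowest 3 for both genes, at -0.51 (SE 0.09, adjusted p = 0.00251) and, for Cox5a, -0.50 (SE 0.10, adjusted p = 0.00443). Cox6b1 and Cox7c also fell, at -0.51 and -0.50, but each call ended without CBDL_164, CBDL_165 or sham_160, and that of Cox6b1 also without sham_158. Cox4i1, which joins the mitochondrially encoded COX1 early in assembly, did not pass the test at -0.16 (SE 0.09), with 10.47, 10.36 and 10.52 in norUDCA-fed CBDL, 10.30, 10.30 and 10.15 in CBDL and 10.41, 10.38 and 10.44 in sham. Cox8a had 11.52, 11.52 and 11.52 in norUDCA-fed CBDL, 11.45, 11.24 and 11.41 in CBDL and 11.72, 11.75 and 11.54 in sham, a change of -0.30 (SE 0.10, adjusted p = 0.055) that missed the threshold without overlap of the CBDL and sham arrays. Cox6a1 had 13.17, 13.14 and 13.21 in norUDCA-fed CBDL, 13.13, 12.98 and 13.15 in CBDL and 13.21, 13.28 and 13.17 in sham, near the highest signals on the arrays, and changed by -0.14 (SE 0.09). Cox7b (-0.45) and Cox5b (-0.29) did not pass. Cox7a2l, which encodes a factor that joins complexes into supercomplexes, was at 0.12 and was the only one of the 11 above 0.

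**Figure D2:**
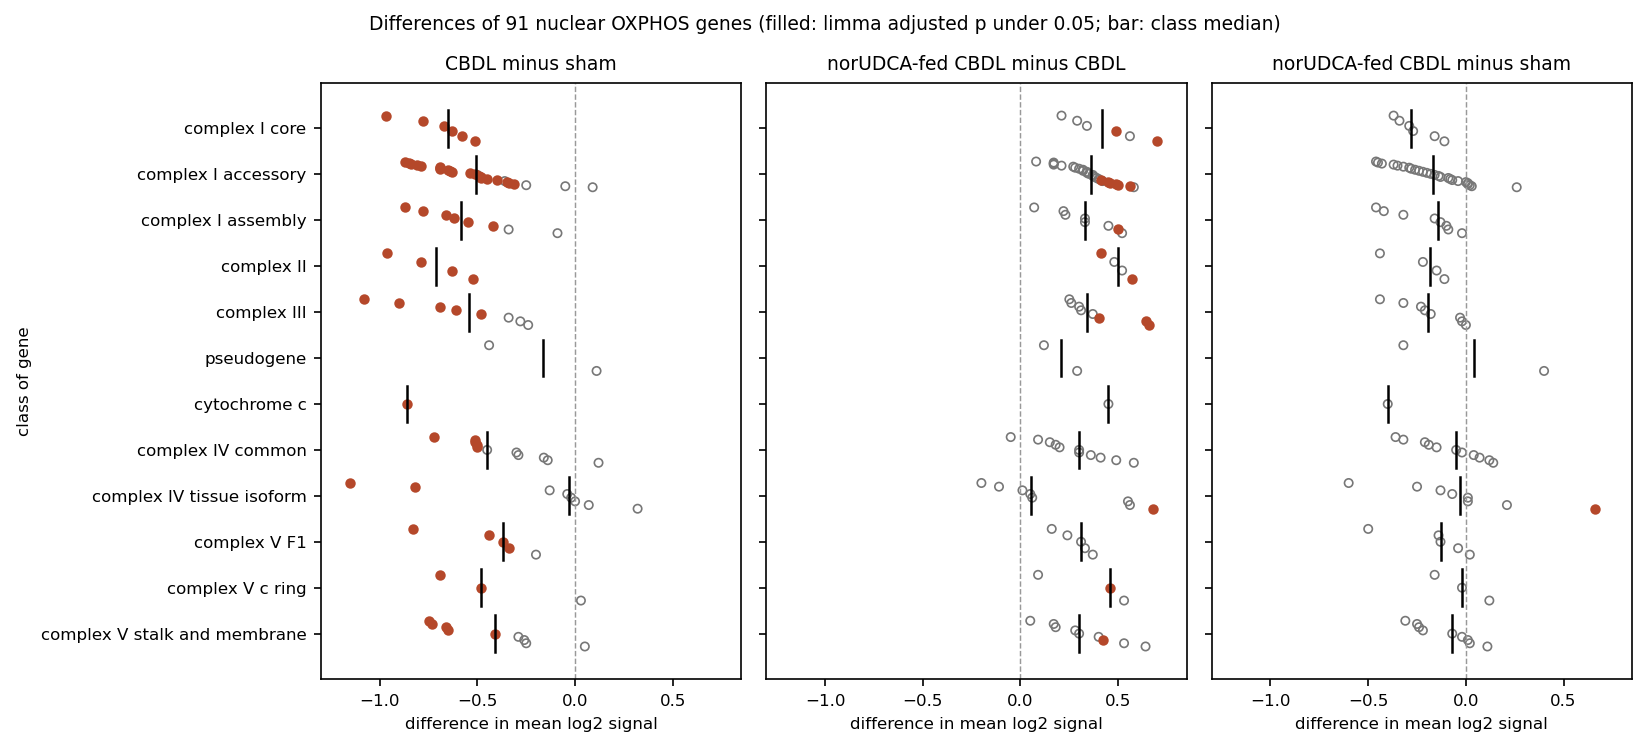
Difference in mean log2 signal of each of the 91 genes (points) by class in the 3 comparisons, with filled points for an adjusted p under 0.05 and a bar at each class median. In the panel of CBDL minus sham the class medians lie from -0.86 (cytochrome c) to -0.03 (tissue isoforms of complex IV), and in the panel of norUDCA-fed CBDL minus CBDL all but 3 points lie above 0.

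Complex V, the ATP synthase, had 11 of 17 genes lower in CBDL, with a median of -0.41 (6 without sham_159 and 5 without both sham_159 and CBDL_165). Atp5k, subunit e of the membrane part, had 8.84, 8.90 and 8.98 on the norUDCA-fed CBDL arrays, 8.54, 8.39 and 8.51 on the CBDL arrays and 9.23, 9.29 and 9.13 on the sham arrays. The 3 groups did not overlap, and CBDL differed from sham by -0.73 (SE 0.09, adjusted p = 0.000489). Atp5pb, subunit b of the peripheral stalk, had 10.54, 10.87 and 10.61 on the norUDCA-fed CBDL arrays, 10.25, 10.25 and 10.30 on the CBDL arrays and 10.89, 10.85 and 11.03 on the sham arrays. The CBDL arrays were the lowest 3, at -0.65 (SE 0.11, adjusted p = 0.002). Atp5md, Atp5mpl and Atp5l, small proteins of the membrane part, changed by -0.75, -0.66 and -0.41. The calls of Atp5mpl and Atp5l ended without any 1 of sham_158, sham_159, sham_160, CBDL_164, CBDL_165 and norUDCA_CBDL_179 (adjusted p up to 0.135 and 0.088). In the F1 head, Atp5e, Atp5d, Atp5a1 and Atp5c1 fell, at -0.83, -0.44, -0.37 and -0.34, while Atp5b, the catalytic beta subunit, changed by -0.20 (SE 0.09) and did not pass. The dimmer row of Atp5e was at -0.08, unlike its brighter row at -0.83. The call of Atp5a1 ended without any 1 of sham_159, sham_160, CBDL_165, CBDL_170, norUDCA_CBDL_172 and norUDCA_CBDL_179 (adjusted p up to 0.101), and that of Atp5c1 without any array but norUDCA_CBDL_175 (up to 0.124). Atp5h, Atp5j, Atp5o and Atp5j2 did not pass, at -0.26, -0.25, -0.29 and 0.05.

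**Figure D3:**
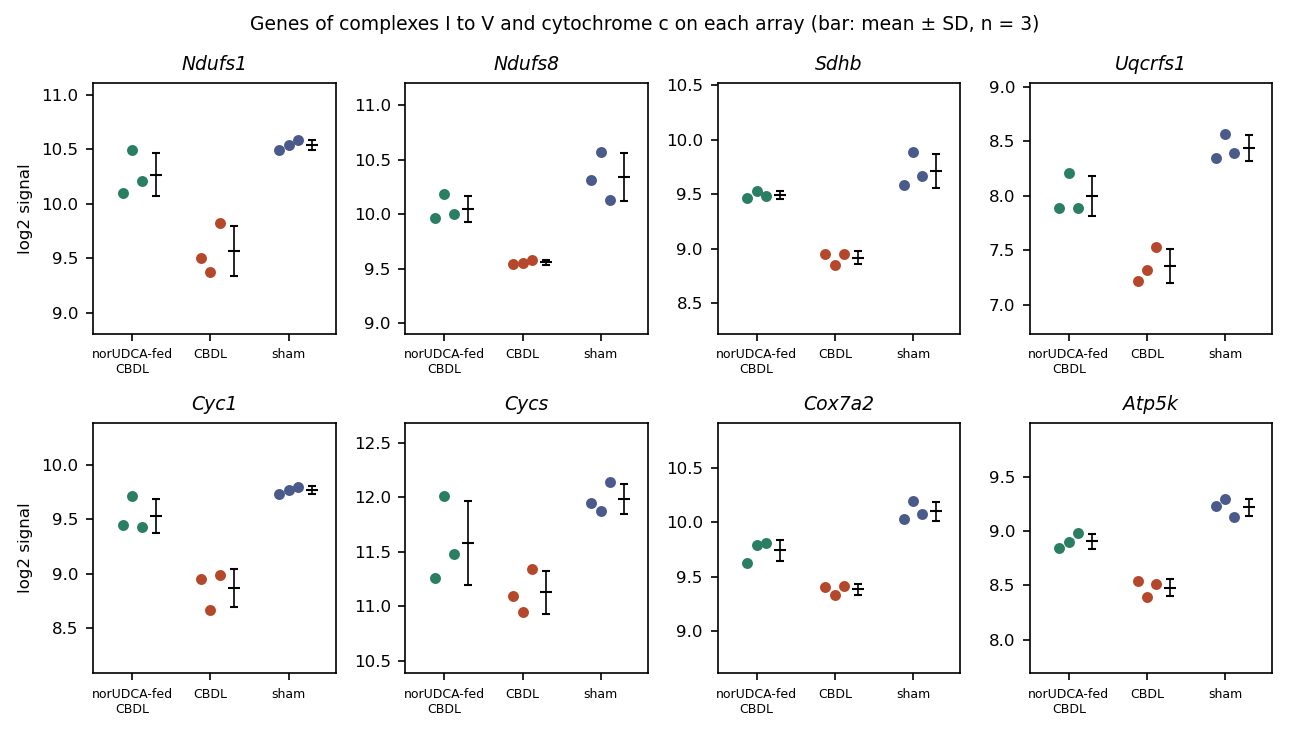
Log2 signals of 8 genes of complexes I to V and cytochrome c on each array (points) with the group mean and SD (n = 3), norUDCA-fed CBDL at the left, CBDL in the middle and sham at the right. All panels span the same number of log2 units. The CBDL points lie below the sham points in every panel. The norUDCA-fed CBDL points lie above the CBDL points in every panel but that of Cycs.

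Some subunits are encoded by several genes, and these isoform genes differed in their values. The c ring of the ATP synthase, through which protons pass, is built from 1 mature protein that 3 genes encode. Atp5g1 had 6.84, 6.85 and 7.03 on the norUDCA-fed CBDL arrays, 6.81, 6.08 and 6.22 on the CBDL arrays and 6.77, 7.12 and 7.31 on the sham arrays. Atp5g2 had 11.87, 11.76 and 11.91 on the norUDCA-fed CBDL arrays, 11.80, 11.70 and 11.78 on the CBDL arrays and 11.71, 11.78 and 11.70 on the sham arrays. Atp5g3 had 9.67, 9.80 and 9.72 on the norUDCA-fed CBDL arrays, 9.14, 9.32 and 9.34 on the CBDL arrays and 9.70, 9.78 and 9.77 on the sham arrays. Atp5g3 fell in CBDL without overlap (-0.48 (SE 0.09, adjusted p = 0.0049)), Atp5g1 fell, at -0.69 (SE 0.20), although CBDL_164 lay inside the sham range, and Atp5g2 was at 0.03 (SE 0.09), with its second row at 0.08. The call of Atp5g1 ended without sham_159, sham_160, CBDL_165 or CBDL_170 (adjusted p up to 0.109).

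Of the 8 complex IV genes known as forms of muscle, lung, testis or low oxygen, 2 fell in CBDL. Cox6a2, the heart and skeletal muscle form of subunit VIa, had 6.31, 7.49 and 6.22 in norUDCA-fed CBDL, 6.24, 5.94 and 6.19 in CBDL and 7.83, 7.19 and 6.80 in sham. The sham arrays were spread over about 1 log2 unit, all above CBDL, and norUDCA_CBDL_175 was far above the other norUDCA-fed CBDL arrays. The change in CBDL was -1.15 (SE 0.34, adjusted p = 0.0365), the largest decrease among the 91 genes, and its call ended without any 1 of sham_158, sham_159, CBDL_164, CBDL_165 and CBDL_170. Cox7a1, the muscle form of subunit VIIa, had 6.92, 7.44 and 7.03 in norUDCA-fed CBDL, 6.67, 6.15 and 6.87 in CBDL and 7.25, 7.52 and 7.37 in sham. It fell in CBDL, at -0.82 (SE 0.19), with no overlap of CBDL and sham, and its call ended without both sham_159 and CBDL_165. In a list of 10 muscle genes (among them Ckm and Acta1), which were dim, 0 were called in any comparison and 1, Myh1, had an unadjusted p under 0.05 in CBDL against sham, at -0.55, with no overlap of the arrays. Their mean log2 signal lay between 4.88 and 5.15 in norUDCA-fed CBDL, 4.83 and 4.96 in CBDL and 4.78 and 5.09 in sham. Cox8b, the other muscle form, had 5.16, 4.92 and 5.83 in norUDCA-fed CBDL, 5.29, 4.93 and 6.01 in CBDL and 5.39, 4.60 and 5.29 in sham, with no order between groups. Cox4i2, the lung form of subunit IV, had 5.54, 6.04 and 5.94 in norUDCA-fed CBDL, 5.75, 6.18 and 6.19 in CBDL and 5.90, 6.02 and 5.98 in sham and was at 0.07 in CBDL against sham. Ndufa4l2, induced in low oxygen, had 7.12, 7.13 and 7.13 in norUDCA-fed CBDL, 6.97, 7.12 and 7.14 in CBDL and 7.14, 7.26 and 6.95 in sham and was at -0.04.

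Cox6b2, described in testis, was the only one of the 91 genes called higher than in sham. It had 7.23, 7.31 and 7.36 on the norUDCA-fed CBDL arrays, 6.75, 6.32 and 6.77 on the CBDL arrays and 6.69, 6.60 and 6.62 on the sham arrays. Every norUDCA-fed CBDL array was above every array of both other groups, and CBDL and sham overlapped. The difference was 0.68 (SE 0.13, adjusted p = 0.0156) against CBDL and 0.66 (SE 0.13, adjusted p = 0.0246) against sham. The call against CBDL ended without norUDCA_CBDL_175 or norUDCA_CBDL_179 (adjusted p up to 0.0648) and the call against sham ended without any 1 of the 6 arrays compared (adjusted p up to 0.114). In norUDCA-fed CBDL, the widely expressed Cox6b1 was at -0.02 (SE 0.13) against sham. Against CBDL, Cox6b1 was at 0.49 (SE 0.13, adjusted p = 0.0629), which did not pass the test although the arrays did not overlap.

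**Figure D4:**
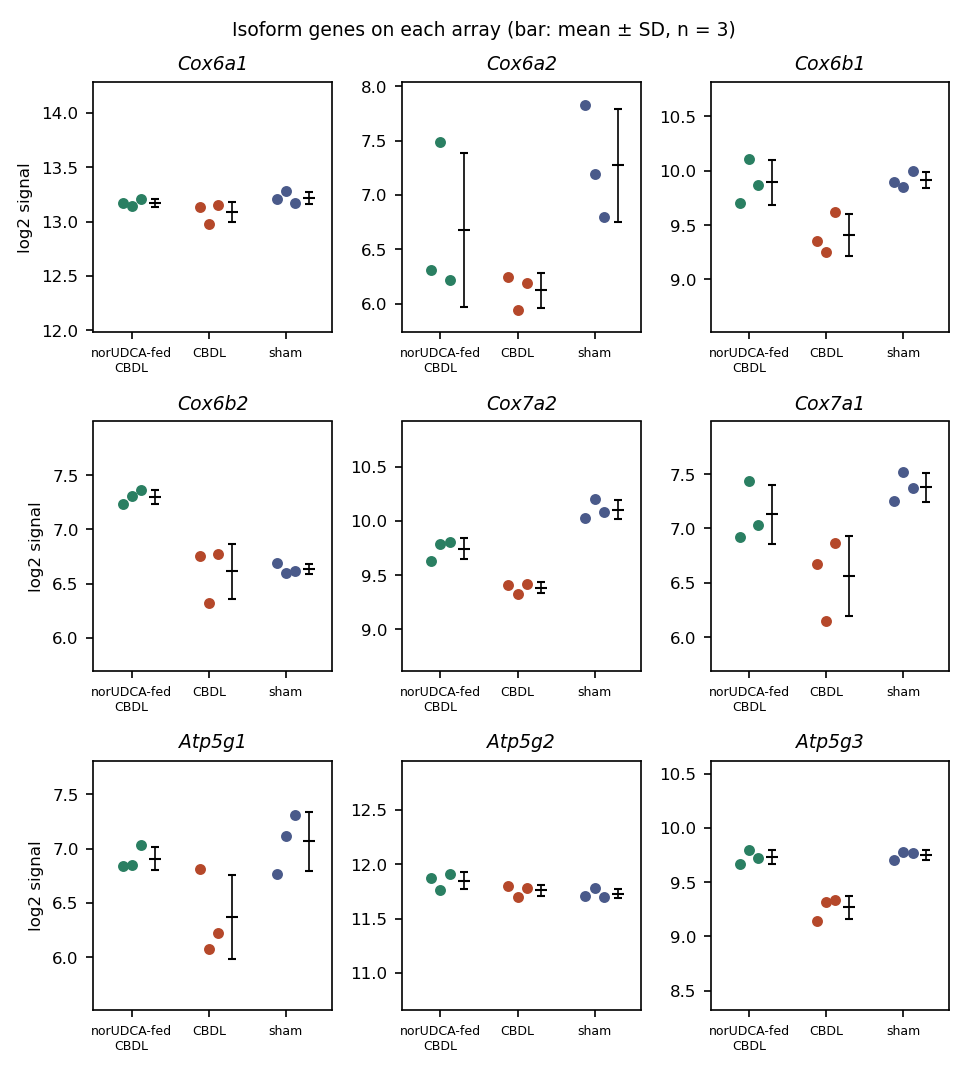
Log2 signals of 9 isoform genes of complexes IV and V on each array (points) with the group mean and SD (n = 3), norUDCA-fed CBDL at the left, CBDL in the middle and sham at the right, over the same number of log2 units in every panel. Atp5g2 and Cox6a1 did not pass the test in any comparison, Atp5g3 and Cox7a2 are lower in CBDL, and Cox6b2 is higher in norUDCA-fed CBDL on all 3 arrays.

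The 17 genes that rose in norUDCA-fed CBDL against CBDL came from all 5 complexes. They were 2 of 6 core subunits, 6 of 26 accessory subunits and 1 of 8 assembly factors of complex I, 2 of 4 genes of complex II, 3 of 8 of complex III, 1 of 19 of complex IV and 2 of 17 of complex V. The arrays of most are given above. None of the 5 genes of the F1 head or the 11 widely used complex IV genes was called. Their median changes were 0.31 and 0.30, near the 0.34 of all 91 genes. Ndufs1 had the largest change, 0.70 (SE 0.14, adjusted p = 0.0181), then Cox6b2, Cyc1 at 0.66 (SE 0.12, adjusted p = 0.0138), Uqcrfs1 at 0.64 (SE 0.13, adjusted p = 0.02) and Sdhb at 0.57 (SE 0.10, adjusted p = 0.014). Ndufs8 changed by 0.49 (SE 0.12), Ndufaf6 by 0.50 (SE 0.13), Atp5g3 by 0.46 (SE 0.09), Atp5k by 0.42 (SE 0.09), Sdhd by 0.41 (SE 0.10) and Uqcrc2 by 0.40 (SE 0.10), with adjusted p between 0.0202 and 0.0464. In each of these genes the norUDCA-fed CBDL arrays did not overlap the CBDL arrays. Each of the 17 calls ended without norUDCA_CBDL_175, which for Cyc1 was the only single array whose removal did so.

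The 6 accessory genes of complex I that rose against CBDL are membrane or matrix arm subunits. Ndufb5, of the membrane arm, had 8.83, 9.11 and 8.92 in norUDCA-fed CBDL, against 8.20, 8.38 and 8.58 in CBDL. Ndufb8 of the same arm had 7.70, 7.84 and 7.86 in norUDCA-fed CBDL, against 7.16, 7.22 and 7.55 in CBDL. Ndufb10, also in that arm, had 7.65, 7.95 and 7.82 in norUDCA-fed CBDL, against 7.34, 7.34 and 7.35 in CBDL. All 3 were higher on every norUDCA-fed CBDL array, by 0.56, 0.49 and 0.46. Ndufa9, which lies near the ubiquinone site, had 10.56, 10.59 and 10.58 in norUDCA-fed CBDL, against 10.06, 9.84 and 10.33 in CBDL. Ndufa2, of the matrix arm, had 8.85, 8.81 and 9.06 in norUDCA-fed CBDL, against 8.49, 8.49 and 8.52 in CBDL. Ndufab1, the acyl carrier protein of mitochondria, had 7.75, 7.97 and 7.77 in norUDCA-fed CBDL, against 7.27, 7.36 and 7.49 in CBDL. They too did not overlap, at 0.50, 0.41 and 0.45, and adjusted p for the 6 lay between 0.027 and 0.0438. Among larger differences that did not pass the test were those of Atp5mpl (0.64 (SE 0.20, adjusted p = 0.097)), Cox7b (0.58 (SE 0.16, adjusted p = 0.0558)) and Ndufc1 (0.58 (SE 0.16, adjusted p = 0.0575)).

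Against sham, the largest decreases in norUDCA-fed CBDL were those of Cox6a2 (-0.60, adjusted p = 0.418), Atp5e (-0.50, adjusted p = 0.172), Ndufa1 (-0.46, adjusted p = 0.058), Ndufaf1 (-0.46, adjusted p = 0.0788) and Ndufa13 (-0.45, adjusted p = 0.0967), and none passed the test. By complex the median difference was -0.17 for complex I, -0.19 for complex II, -0.20 for complex III, -0.05 for complex IV and -0.07 for complex V. A p that misses the threshold does not show that these genes were at sham level.

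The subunits encoded in mitochondrial DNA were set beside the nuclear ones. Of 13 such genes 10 had a row with a single symbol, 0 were called in any comparison, and 0 had an unadjusted p under 0.05 in CBDL against sham. Their median change was 0.00 in CBDL against sham and 0.09 in norUDCA-fed CBDL against CBDL. For 9 of the 10 every array was at 12.51 or more, near the highest signals on the arrays (13.64 to 13.73), and whether such bright rows can show a decrease was not tested. The exception was ND6, a complex I subunit, with 10.06, 10.21 and 10.00 in norUDCA-fed CBDL, 9.78, 9.93 and 10.05 in CBDL and 10.05, 9.50 and 10.14 in sham. The groups overlapped there, at 0.02 (SE 0.16) in CBDL against sham. The lowest of the 10 was ND3, another complex I subunit, with 13.10, 13.27 and 13.09 in norUDCA-fed CBDL, 12.90, 12.95 and 13.10 in CBDL and 13.16, 13.20 and 13.21 in sham, at -0.21 (SE 0.10, adjusted p = 0.169), and after median centring it was at -0.31 (adjusted p = 0.047).

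Assembly factors outside the symbol rule insert haem, copper and iron-sulfur clusters or guide subunits into place. In CBDL 22 of 37 such genes fell (59.5%, median -0.44), beside 11.5% of all genes, and 13 did so without CBDL_164. Acad9 and Ecsit, which act with Ndufaf1 on complex I, changed by -1.33 (SE 0.17, adjusted p = 0.000439) and -1.11 (SE 0.15). Nubpl, which delivers iron-sulfur clusters to complex I, changed by -0.77 (SE 0.08, adjusted p = 0.000192), Cox15, needed for haem A of complex IV, by -1.17 (SE 0.15), and Tmem70, needed for the ATP synthase, by -0.91 (SE 0.12). In norUDCA-fed CBDL 6 of the 37 rose against CBDL (16.2%, beside 3.61% of all genes), and 0 did so without CBDL_165. Among the 6 were Ecsit (0.70 (SE 0.15)) and Lyrm7, a chaperone of the Rieske protein (0.48 (SE 0.09)). Lyrm7 lay in the dimmest tercile, with mean signals of 4.62 in norUDCA-fed CBDL, 4.14 in CBDL and 4.36 in sham. It did not pass the test in CBDL against sham, at -0.22 (SE 0.09, adjusted p = 0.139). Against sham Nubpl (-0.45 (SE 0.08, adjusted p = 0.0209)) and Sco1, a copper chaperone (-0.51 (SE 0.11, adjusted p = 0.0451)), were lower in norUDCA-fed CBDL, and both calls ended without any 1 of sham_158, sham_160 and the 3 norUDCA-fed CBDL arrays, that of Sco1 also without sham_159, CBDL_164 or CBDL_170.

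Enzymes of the citric acid cycle and pyruvate dehydrogenase, which supply NADH and succinate, fell for 14 of 17 genes in CBDL (median -0.59, 12 to 14 with any 1 array left out). Suclg1 and Sucla2, subunits of succinyl-CoA ligase, changed by -1.08 (SE 0.13, adjusted p = 0.000338) and -0.88 (SE 0.15), and Dld and Dlst, subunits of 2-oxoglutarate dehydrogenase, by -0.82 (SE 0.13) and -0.77 (SE 0.13). Against CBDL 5 of the 17 rose in norUDCA-fed CBDL, with the lowest p for Suclg1 at 0.76 (SE 0.13, adjusted p = 0.0121), and 0 did so without norUDCA_CBDL_175. Of carriers and outer membrane proteins 7 of 17 fell in CBDL (5 to 6 with any 1 array left out), with Hspd1, a matrix chaperonin, at -0.99 (SE 0.12), Slc25a10, the dicarboxylate carrier, at -0.89 (SE 0.11), Slc25a11, the oxoglutarate carrier, at -0.77 (SE 0.16) and Vdac1, an outer membrane channel, at -0.44 (SE 0.08). In norUDCA-fed CBDL 3 of the 17 rose against CBDL. Slc25a10 rose by 0.81 (SE 0.11, adjusted p = 0.00815), a call that held whichever array was left out. Hspd1 (0.52 (SE 0.12)) and Slc25a11 (0.69 (SE 0.16)) rose too, but both calls ended without any 1 of sham_158, CBDL_164, CBDL_165 and the 3 norUDCA-fed CBDL arrays. Mitochondrial ribosomal protein genes fell for 38 of 71 (53.5%, median -0.41, 22 without CBDL_164), with the lowest p for Mrpl50 at -0.84 (SE 0.10), Mrps7 at -0.96 (SE 0.13) and Mrpl49 at -0.88 (SE 0.12). Only 1 of the 71, Mrpl50, rose in norUDCA-fed CBDL against CBDL (0.57 (SE 0.10, adjusted p = 0.0133)), though not without norUDCA_CBDL_175 or without CBDL_164. That is 1.41% of them, below the 3.61% of all genes that rose in this comparison. In CBDL against sham 11.5% of all genes fell.

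Among genes through which electrons enter the chain beside complexes I and II, or protons leak back, 4 of 9 fell and 1 rose in CBDL. These are 44.4% and 11.1%, beside 11.5% and 10.3% of all genes. Etfa, Etfb and Etfdh, which pass electrons from fatty acid oxidation to ubiquinone, changed by -0.91 (SE 0.11, adjusted p = 0.000377), -0.81 (SE 0.18) and -0.66 (SE 0.12). Etfa (0.59 (SE 0.11)) and Etfdh (0.54 (SE 0.12)) rose against CBDL in norUDCA-fed CBDL, and neither did without any 1 of CBDL_164, CBDL_165 and the 3 norUDCA-fed CBDL arrays. Gpd2, mitochondrial glycerol phosphate dehydrogenase, had 7.41, 7.79 and 7.80 in norUDCA-fed CBDL, 7.46, 7.52 and 7.66 in CBDL and 8.50, 9.20 and 8.77 in sham. Its norUDCA-fed CBDL arrays stayed with the CBDL arrays, at -1.16 (SE 0.18, adjusted p = 0.00976) against sham. Slc25a27, an uncoupling protein of neurons, rose in CBDL by 0.51 (SE 0.12, adjusted p = 0.0151), and not without both sham_159 and CBDL_165.

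Regulators of mitochondrial biogenesis were read from a list of 18 genes. It mixes factors that switch on nuclear genes with proteins that copy or express mitochondrial DNA. Of the 18 genes 8 fell in CBDL (44.4%, median -0.27, 7 to 8 with any 1 array left out), beside 11.5% of all genes. They were Ppargc1b, Esrra and Esrrg of the first kind and Tfam, Tfb1m, Tfb2m, Polrmt and Twnk of the second. Ppargc1a, the coactivator PGC-1 alpha, had 10.89, 10.97 and 10.91 on the norUDCA-fed CBDL arrays, 10.48, 10.34 and 10.60 on the CBDL arrays and 10.68, 10.89 and 10.60 on the sham arrays. CBDL_170 lay only just below sham_160, and the change of -0.25 (SE 0.11, adjusted p = 0.136) did not pass the test. Against CBDL it rose in norUDCA-fed CBDL, by 0.45 (SE 0.11, adjusted p = 0.0388). Esrra, the nuclear receptor ERR-alpha, had 8.13, 8.34 and 8.21 on the norUDCA-fed CBDL arrays, 7.71, 7.66 and 7.90 on the CBDL arrays and 8.41, 8.55 and 8.26 on the sham arrays. Tfam, which packages and transcribes mitochondrial DNA, had 7.21, 7.32 and 7.46 on the norUDCA-fed CBDL arrays, 6.54, 6.93 and 6.84 on the CBDL arrays and 7.43, 7.48 and 7.35 on the sham arrays. Both fell in CBDL without overlap, at -0.65 (SE 0.11, adjusted p = 0.00266) and -0.65 (SE 0.12, adjusted p = 0.00396), and rose in norUDCA-fed CBDL against CBDL, at 0.47 (SE 0.11) and 0.56 (SE 0.12). Nrf1, the factor whose letters were sought above, had 7.32, 7.35 and 7.27 in norUDCA-fed CBDL, 7.50, 7.44 and 7.41 in CBDL and 7.47, 7.76 and 7.35 in sham and did not pass, at -0.08 (SE 0.11). Gabpa, the DNA-binding subunit of the ETS factor, had 8.73, 8.53 and 8.73 in norUDCA-fed CBDL, 8.58, 8.64 and 8.73 in CBDL and 8.96, 9.05 and 8.79 in sham and did not pass either, at -0.29 (SE 0.11, adjusted p = 0.0897). Ppargc1b, the related coactivator, and Tfb1m, an rRNA methyltransferase of mitochondria, fell in CBDL, at -0.73 (SE 0.10) and -0.65 (SE 0.09). Tfb1m was also lower in norUDCA-fed CBDL than in sham (-0.41 (SE 0.09, adjusted p = 0.0463)), a call that held with CBDL_165 left out and ended without any other array. Esrrg, another receptor of the ERR family, fell in CBDL, at -0.42 (SE 0.13, adjusted p = 0.0426), and was past the threshold in only 1 of the fits that left out an array, that without CBDL_170, and rose against CBDL by 0.55 (SE 0.13). The calls of Ppargc1a, Esrra, Esrrg and Tfam in norUDCA-fed CBDL against CBDL ended without CBDL_164 and without any 1 of the 3 norUDCA-fed CBDL arrays, those of the first 3 genes also without CBDL_165 or sham_158, and that of Esrrg also without sham_160.

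**Figure D5:**
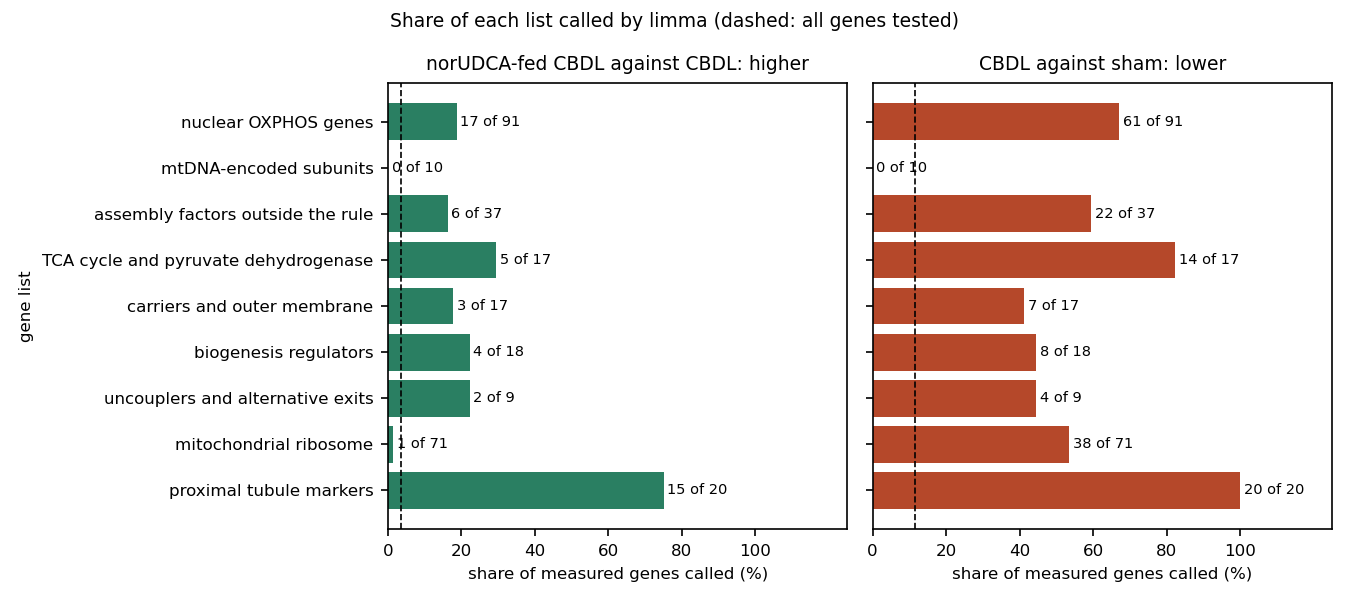
Share of the measured genes of each list that rose in norUDCA-fed CBDL against CBDL (left panel) and that fell in CBDL against sham (right panel), with counts beside the bars and a dashed line at the share of all genes tested (3.61% and 11.5%). The nuclear OXPHOS genes (61 of 91), the citric acid cycle (14 of 17) and the proximal tubule markers (20 of 20) reach the largest shares in the right panel, and no subunit from mitochondrial DNA is called in either.

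Marker lists of kidney cell types and of other cells were read on the same arrays. Among all genes 11.5% fell and 10.3% rose in CBDL against sham. In norUDCA-fed CBDL against CBDL 3.61% of all genes rose and 3.20% fell. All 20 proximal tubule markers fell in CBDL, with a median of -1.68, and their mean log2 signal lay between 11.64 and 11.79 in norUDCA-fed CBDL, 10.01 and 11.14 in CBDL and 12.07 and 12.16 in sham. CBDL_165 was the lowest and CBDL_170 the highest of the CBDL arrays in that mean, as in the mean over the 91 genes. In norUDCA-fed CBDL 15 of the 20 rose against CBDL (1 without CBDL_164). Of 11 markers of the limb and distal tubule segments that follow (such as Umod, Slc12a1 and Slc12a3) 4 fell and 1 rose in CBDL, with means of 10.11 to 10.19 in norUDCA-fed CBDL, 9.76 to 9.96 in CBDL and 10.07 to 10.12 in sham. Of collecting duct markers 3 of 12 fell (1 without sham_158 or without sham_159) and 1 rose in CBDL. Of endothelial markers 1 of 8 fell (4 without CBDL_170) and none rose (1 without sham_159). All 14 macrophage and myeloid markers rose in CBDL, with a median of 2.26 and means of 7.92 to 7.98 in norUDCA-fed CBDL, 8.53 to 9.41 in CBDL and 6.78 to 7.14 in sham, and 11 of them fell in norUDCA-fed CBDL against CBDL (2 without norUDCA_CBDL_175). All 10 fibroblast and matrix markers rose, with a median of 1.34 and means of 9.04 to 9.19 in norUDCA-fed CBDL, 9.93 to 10.12 in CBDL and 7.97 to 8.48 in sham. Of adipose markers 3 of 7 rose in CBDL. The part of these shifts in the values of the nuclear OXPHOS genes was not tested.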

How the data were processed

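The deposited values are log2 signals, and the submitters' processing notes name RMA normalization and Partek 6.6 for them. Total RNA came from a TRIzol extraction and was labelled by Affymetrix's WT PLUS method, per the labels' protocols. The array model, its genome build and any filter are not given in the sources used here. Of 41345 rows, 23521 carry 1 gene symbol in the platform annotation, 1814 several and 16010 none. The brightest single-symbol row stood for a gene, which gave 22180 genes, with no filter on dim genes. All 91 symbols were found in the RefSeq gene table, and 4 of the 91 genes lay in the dimmest tercile of all genes (a mean log2 signal under 5.2). Signals of different rows were not set against each other.

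limma 3.58.1 (R 4.3.3) fitted a mean for each group over all 9 arrays, with 6 residual and 3.77 prior degrees of freedom, and Benjamini-Hochberg adjustment over all genes (threshold 0.05, two-sided). Lists were described by counts and medians alone, and no list test was run. The labels share no replicate numbers between groups and name no batch. The genes, lists, motifs and rules were chosen with earlier results of these data known.

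Values on every array are printed for up to 3 genes per class with the lowest p in CBDL against sham, for genes called in norUDCA-fed CBDL against CBDL or called higher, and for fixed isoform genes. From each further list up to 4 genes with the lowest p in CBDL against sham and 2 in norUDCA-fed CBDL against CBDL are named, with Ppargc1a, Esrra, Nrf1, Tfam and Gabpa. Slc25a27, Sco1, Myh1, Tfb2m, Polrmt and Twnk were named, and the arrays of Gpd2 and ND6 given, after their values were seen. Alternatives were an intensity trend, array weights, only the 6 arrays compared, the dimmest tercile left out, means of all rows, quantile normalization, median centring and each array left out. Leaving out sham_159 and CBDL_165 together was added after seeing the data. Promoter sequences are from RefSeq (GRCm38.p6).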

Additional observations from a re-analysis of the deposited data

How the results depend on the processing

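The count of 61 genes lower in CBDL than in sham lay between 50 and 67 under the 7 other processing choices and between 45 and 62 with 1 array left out, always with none higher. Without both sham_159 and CBDL_165 it was 38. The count of 17 genes higher in norUDCA-fed CBDL than in CBDL was 32 with an intensity trend, 26 with array weights, 6 with only the 6 arrays compared, 32 without the dimmest tercile, 34 after median centring and 4 without both arrays, and between 0 and 23 with 1 array left out. It was 17 with means of all rows and with quantile normalization. The count of 1 for norUDCA-fed CBDL against sham was 5 with the trend (4 lower), 10 with weights (9 lower), 6 without the dimmest tercile (5 lower) and 5 after centring (4 lower), and between 0 and 1 with 1 array left out. Without norUDCA_CBDL_175 the 1 call was of another gene, which was lower. Over the genes named and their alternatives, no difference past the threshold changed sign, 2479 results stayed on their side of it, 381 lost it and 45 gained it. Of the 61 calls 40 held with any 1 array left out, 34 under every other choice and 32 under all, and of the 17 calls 0, 4 and 0. No paired analysis was possible because the labels give no replicate number that 2 groups share. The 3 arrays per group limit the precision, and leaving out 1 array lowers the degrees of freedom as well as changing the means.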
